A study of Mus musculus with 2 samples.

Results

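Chaperone and unfolded protein response genes were followed through 2 single-cell RNA sequencing libraries of mouse blood. The set held 38 of the 27998 genes in the count tables, named in a list of symbols that uses no measured value as a criterion but was drawn up with earlier results of these data known, and every symbol was found. By the compartment their proteins work in, 15 belonged to the cytosolic heat shock system, 3 to the mitochondrion and 20 to the endoplasmic reticulum (ER). Peripheral blood mononuclear cells came from female C57Bl/6 mice aged 10 weeks, either MvkV377I/del91 (mutant, with V377I on 1 copy of the mevalonate kinase gene Mvk and del91 on the other) or Mvk+/+ (wildtype), and no treatment is named in the labels. Blood of 3 mice per genotype was pooled, red cells were lysed, live cells without Ter119, an antigen of red cells, were taken by cell sorting, and 1 library per genotype was made with 2000 cells targeted.

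Heat shock proteins bind unfolded protein and use ATP to fold it, hold it or pass it on. Hsp70 proteins work with J-domain partners that deliver substrates and with exchange factors that release them, Hsp90 proteins take over late folding steps, and the transcription factor HSF1 raises many of these genes when unfolded protein accumulates in the cytosol. In the ER, the unfolded protein response reads unfolded protein through the sensors IRE1, PERK and ATF6 and raises chaperones, disulfide isomerases and degradation factors through XBP1, ATF4 and ATF6, a programme best known in antibody-secreting cells.

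Each UMI (unique molecular identifier) stands for 1 captured RNA molecule. The mutant library held 14513059 UMIs and 4190 cells (median 1968 UMIs per cell), and the wildtype library 15385199 UMIs and 5225 cells (median 2036). The libraries shared 28 cell barcodes. Cells were called T, B, NK (natural killer) or monocyte from marker UMIs, which gave 2283 mutant and 2760 wildtype T cells, 1276 and 1124 B cells, 182 and 845 NK cells, and 106 and 106 monocytes, with 343 and 390 cells left unassigned. Median UMIs per cell were 2104 mutant and 2283.5 wildtype in T cells and 1588.5 and 1587.5 in B cells. Depth differed more in NK cells, at 1970 and 1663, and in monocytes, at 2892 and 2114.5. Cd8a and Cd8b1, which did not set the types, summed to 713 mutant and 848 wildtype CPM (UMIs per 1000000 of the type) in T cells and to between 22.6 and 66.3 CPM in the other types. Mvk itself was too sparse for a check of the labels, with 27 mutant and 42 wildtype UMIs in T cells, and UMIs from the 3′ end do not read the alleles.

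Other cell material differed between the libraries. The 5 erythroid markers, all detected except Alas2 in wildtype NK cells and monocytes, summed to 8816 mutant against 582 wildtype CPM in T cells and were 8.01 to 21.1 times higher in the mutant cells over the 4 types, and 14.2 times higher in free RNA, that is in barcodes of 1 to 20 UMIs. Platelet markers were higher in the mutant library as well (7.41 times in T cells), and neutrophil markers lower (7.50 against 60.4 CPM in T cells). B cell markers in T cells stood at 221 mutant and 150 wildtype CPM (ratio 1.48, with 1.54 in NK cells and 1.43 in free RNA), NK markers had ratios of 0.376 in T and 0.335 in B cells, and basophil markers stood at 16.8 and 0.904 CPM in T cells. With 1 library per genotype no test can be made. Genotype, mouse pool and library cannot be told apart, so every value describes these libraries, and the 95% intervals cover counting error only.

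Short stretches of the promoters show the DNA elements by which these genes are usually recognised as heat shock or ER stress targets. RefSeq windows (GRCm38.p6, 250 bases before to 50 after a start site) matched 30 of the 38 genes, and Hspa8, Hsp90aa1, Hsp90ab1, Hsf1, Hspa9, Atf6, Manf and Hyou1 had no match. The heat shock triplet, searched as GAANNTTCNNGAA or TTCNNGAANNTTC, stood in 0.603% of all 32851 windows and in those of Hsph1, Dnajb6, Chordc1, Hspd1 and Hspe1. Its 2-unit core, GAANNTTC or TTCNNGAA, which the triplet contains, stood in 15.1% of all windows and in 7 of 11 cytosolic, 2 of 2 mitochondrial and 0 of 17 ER genes. The ER stress element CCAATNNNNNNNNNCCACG, on either strand, stood in 0.119% of all windows and in 7 of 17 ER genes (Hspa5, Hsp90b1, Dnajc3, Calr, Canx, Pdia6 and Creld2), and ER stress element II, ATTGGNCCACG on either strand, in 0.0365% and in Herpud1 and Dnajb11. A match describes these letters and does not show that a factor binds. The stretches below belong to the genes that the values turn on; capitals mark the matched element and each is written 5′ to 3′ on the strand of its gene.
Hsph1 (chr5:149636280-149636308, minus strand): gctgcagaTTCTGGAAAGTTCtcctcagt
Hspd1 (chr1:55088039-55088096, minus strand): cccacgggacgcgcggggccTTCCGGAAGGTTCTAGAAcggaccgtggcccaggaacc
Dnaja1 (chr4:40722324-40722371, plus strand): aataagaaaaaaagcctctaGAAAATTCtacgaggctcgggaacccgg
Hspa1a (chr17:34972233-34972280, minus strand): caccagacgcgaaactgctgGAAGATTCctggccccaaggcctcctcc
Hspa1b (chr17:34959315-34959362, minus strand): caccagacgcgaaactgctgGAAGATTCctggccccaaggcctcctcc
Herpud1 (chr8:94386357-94386407, plus strand): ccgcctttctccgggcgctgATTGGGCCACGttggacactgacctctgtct
Hspa5 (chr2:34772005-34772063, plus strand): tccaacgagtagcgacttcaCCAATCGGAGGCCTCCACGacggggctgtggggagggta
The Hspd1 stretch is also the promoter of Hspe1, read from the other strand, since these neighbours on chromosome 1 share a start region. The stretches of Hspa1a and Hspa1b were the same letter for letter.

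The first question was whether each group as a whole differed between the libraries within a cell type. Summed over its 15 genes, the cytosolic group stood at 3785 mutant and 3322 wildtype CPM in T cells, a ratio of 1.14 (95% interval 1.12 to 1.16). In B cells it stood at 3453 and 2778 CPM, a ratio of 1.24 (1.20 to 1.28). In NK cells it stood at 4411 and 3540 CPM, a ratio of 1.246 (1.18 to 1.31). The group was thus higher in the mutant library in all 3 lymphocyte types. Monocytes stood at 3640 and 3859 CPM, a ratio of 0.943 (0.869 to 1.02), and free RNA at 3141 and 3133 CPM, a ratio of 1.002 (0.928 to 1.08). In the unassigned cells the ratio was 0.847 (0.806 to 0.889). Hspa8, the constitutive Hsp70, carried much of the sum; without it the ratios were 1.13 (1.10 to 1.16) in T, 1.17 (1.13 to 1.22) in B, 1.10 (1.02 to 1.18) in NK cells and 0.843 (0.751 to 0.947) in monocytes.

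The ER group did not show such a gap in the 4 cell types. Its 20 genes summed to 1707 mutant and 1662 wildtype CPM in T cells, a ratio of 1.03 (0.999 to 1.06), and to 2487 and 2428 CPM in B cells, a ratio of 1.02 (0.988 to 1.06). NK cells stood at 2805 and 2867 CPM, a ratio of 0.978 (0.915 to 1.04), and monocytes at 3208 and 3170 CPM, a ratio of 1.01 (0.926 to 1.11). All 4 intervals held 1, and a difference within these bounds was not detectable at this depth. Outside the 4 types the ER group was lower in the mutant library, with ratios of 0.903 (0.821 to 0.994) in free RNA and 0.748 (0.703 to 0.796) in the unassigned cells. The mitochondrial group stood apart in B cells, at 500 and 415 CPM, a ratio of 1.20 (1.11 to 1.31), though 1.12 (0.959 to 1.31) in B cells without subset markers, and had ratios of 1.03 (0.985 to 1.09) in T cells, 0.960 (0.815 to 1.13) in NK cells and 0.860 (0.631 to 1.17) in monocytes. Its ratios were 0.819 (0.673 to 0.997) in free RNA and 0.763 (0.669 to 0.868) in the unassigned cells.

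**Figure D1:**
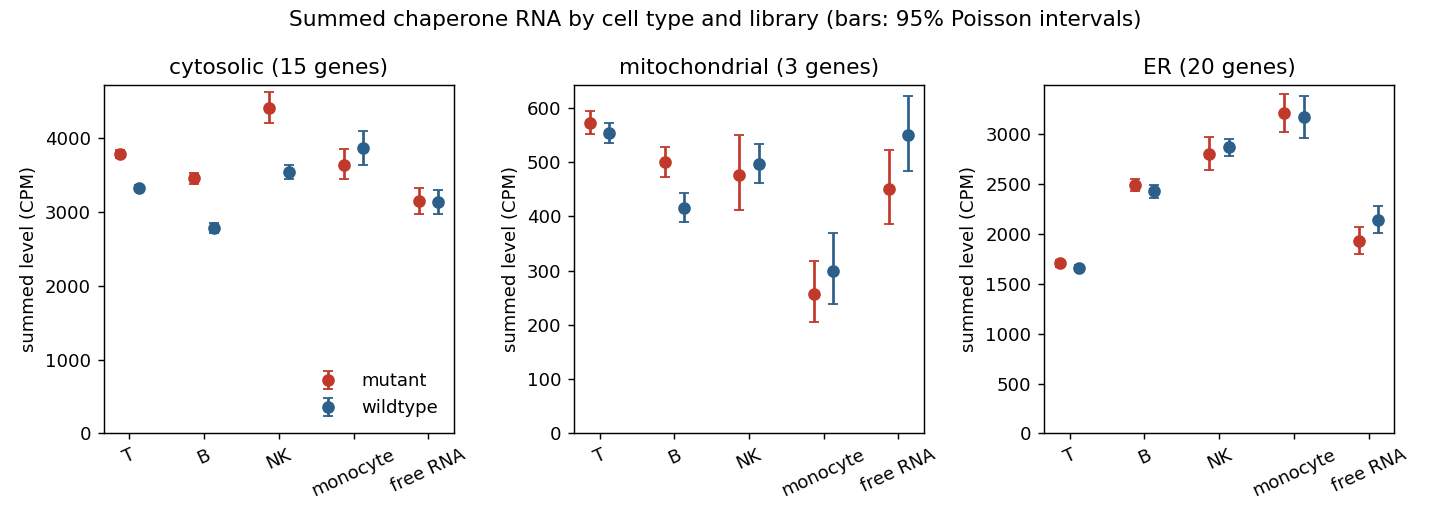
Summed level in CPM (y axis, from 0) of the cytosolic, mitochondrial and ER groups (panels) in each cell type and in free RNA (x axis), mutant in red and wildtype in blue, with bars for 95% Poisson intervals. The cytosolic points are apart in T, B and NK cells (3785 against 3322, 3453 against 2778 and 4411 against 3540 CPM) and side by side in free RNA, while the ER points overlap in B cells, NK cells and monocytes.

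Gene by gene, a member counted as measured with at least 50 UMIs over both libraries in a type, and as apart at a ratio of at least 1.5 or at most 0.667. In T cells 13 of 15 cytosolic members were measured and all 13 had a ratio above 1, from 1.02 to 1.72, where 52.0% of all 8370 measured genes did. Hsph1 and Bag3 were apart, both higher, against a background of 2.33% of all measured genes higher and 2.45% lower. Hspa1a and Hspa1b were not measured. The median log2 ratio of the 13 was 0.20, beside 0.01 over all genes.

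In B cells 10 of 12 measured cytosolic members had a ratio above 1, where 49.6% of all 6886 genes did, and 2 were below. Hsph1 was apart, and among the mitochondrial members Hspd1, where 3.19% of all genes were higher and 3.06% lower by that size. Hspa1a, Hspa1b and Bag3 were not measured. The median log2 ratio of the 12 was 0.26, beside 0.00 over all genes. Of the 12 cytosolic members measured in both T and B cells, 10 had a ratio above 1 in both. The share of all genes above 1 in both types was not counted.

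NK cells were split: 6 of 11 measured cytosolic members stood above 1 and 5 below, where 44.5% of all 4577 genes stood above. Hspa4 was the only member apart there, lower, beside a background of 4.13% higher and 9.13% lower. Its 24 mutant and 145 wildtype UMIs gave a ratio of 0.651 (0.404 to 1.01). Hspa1a, Hspa1b, Bag3 and Hsf1 were not measured. In monocytes 2 of 8 stood above 1, where 46.6% of all 1853 genes did, and no cytosolic member was apart (background 5.88% higher and 6.53% lower). Hspa1a, Hspa1b, Hsph1, Stip1, Chordc1, Bag3 and Hsf1 were not measured there. Of the 11 cytosolic members measured in T, B and NK cells, 6 stood above 1 in all 3 types, namely Hspa8, Hsp90aa1, Hsp90ab1, Dnaja1, Dnajb1 and Stip1. The share of all genes above 1 in all 3 types was not counted.

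**Figure D2:**
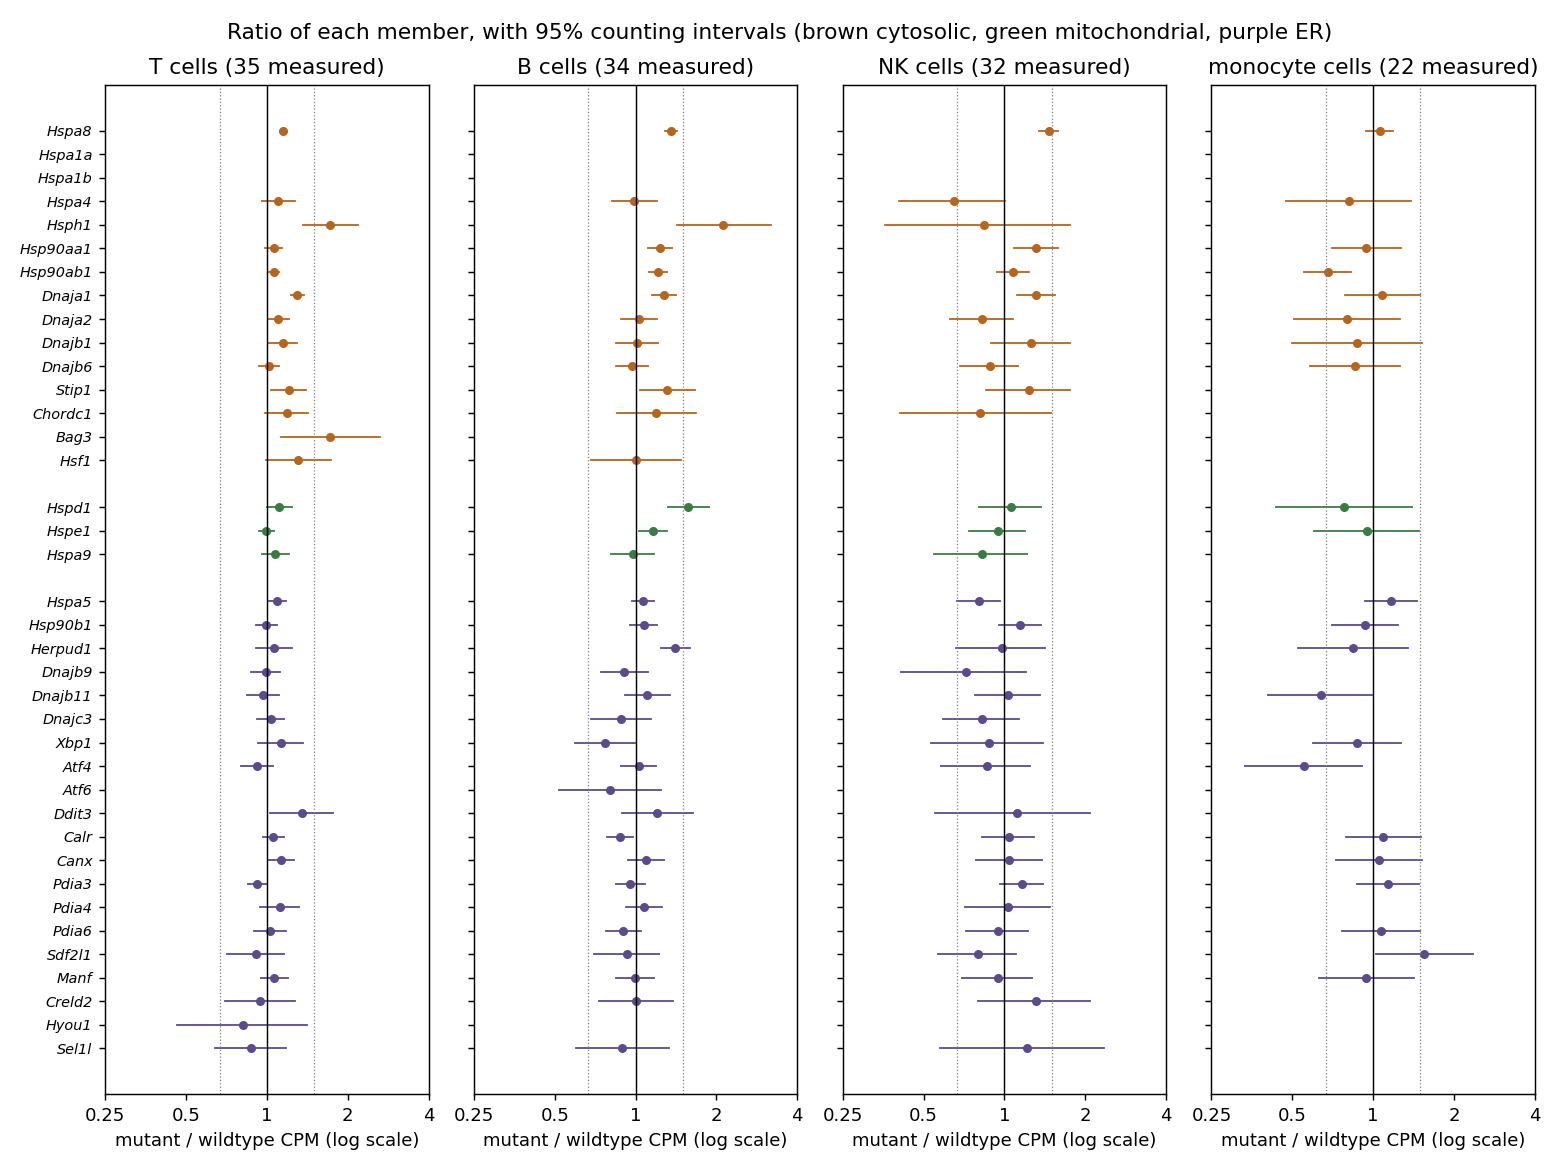
Ratio of mutant to wildtype CPM (x axis, log scale) of each measured member (y axis) in T, B and NK cells and monocytes (panels), with lines for 95% counting intervals and dotted lines at 1.5 and its inverse. In T cells all 13 measured cytosolic members (brown) lie to the right of 1, while the 19 ER members (purple) lie on both sides.

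Among the Hsp70 proteins, Hspa8 held the most UMIs of any member. In T cells it had 8501 mutant and 9697 wildtype UMIs, or 1678 and 1461 CPM, a ratio of 1.15 (1.12 to 1.18). In B cells it stood at 1440 and 1063 CPM, a ratio of 1.35 (1.29 to 1.43), and in NK cells at 2097 and 1432 CPM, a ratio of 1.46 (1.35 to 1.59). Under stricter markers the NK ratio was 1.34. Hspa8 was therefore higher in the mutant library in each lymphocyte type, and lay nearer to 1 in monocytes, at 1.06 (0.940 to 1.19), and in free RNA, at 1.01 (0.903 to 1.14). Hspa4, a nucleotide exchange factor of the Hsp110 family, had a ratio of 1.10 (0.958 to 1.27) in T and 0.988 (0.816 to 1.20) in B cells.

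Hspa1a and Hspa1b encode the inducible Hsp70, and their near-identical transcripts could be exchanged in counting. Hspa1a had 14 UMIs in 7 of 2283 mutant T cells, with 5 of them in 1 cell, and 2 UMIs in 2 of 2760 wildtype T cells. B cells had 20 UMIs in 14 of 1276 mutant and 6 UMIs in 5 of 1124 wildtype cells, a ratio of 2.86 (1.11 to 8.71). Monocytes had 9 and 3 UMIs, NK cells 0 in both libraries, which allows up to 7.53 mutant and 1.91 wildtype CPM, and free RNA 0. Hspa1b had 6 mutant and 1 wildtype UMIs in T cells and at most 2 in any other type. Inducible Hsp70 RNA was thus seen in few cells of either library.

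Hsph1, another exchange factor of the Hsp110 family, had the largest ratio of any measured member. It had 172 mutant UMIs in 162 T cells and 131 wildtype UMIs in 124 T cells, or 34.0 and 19.7 CPM, a ratio of 1.72 (1.36 to 2.18). The ratio was 1.90 (1.37 to 2.65) in T cells with Cd8 UMIs and 1.248 (0.618 to 2.51), no longer apart, in those with Cd4 UMIs. In B cells it had 91 UMIs in 84 cells and 37 UMIs in 35 cells, or 34.8 and 16.5 CPM, a ratio of 2.11 (1.43 to 3.18). No cell held more than 3 of these UMIs, so the gap was spread over many cells. NK cells had 9 and 42 UMIs, a ratio of 0.842 (0.361 to 1.76). Free RNA also held more Hsph1 in the mutant library, 16 against 7 UMIs or 40.5 against 15.2 CPM; with haemoglobin-rich and mixed cells removed and free RNA subtracted, the ratio was 1.68 in T and 2.103 in B cells.

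Bag3, an HSF1 target that links Hsp70 to autophagy, had 55 mutant and 42 wildtype UMIs in T cells, a ratio of 1.72 (1.13 to 2.63). The ratio was 1.33 under stricter T cell markers and 1.15 in T cells with Cd8 UMIs, no longer apart, and the other types held 6 to 21 UMIs over both libraries. Hsf1 itself had 109 and 109 UMIs in T cells, a ratio of 1.31 (0.996 to 1.73), and 1.004 (0.685 to 1.48) in B cells.

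The J-domain partners differed among themselves. Dnaja1, which delivers substrates to Hspa8, had 2360 mutant and 2382 wildtype UMIs in T cells, or 466 and 359 CPM, a ratio of 1.30 (1.23 to 1.38). Its ratio was 1.28 (1.15 to 1.42) in B and 1.31 (1.12 to 1.54) in NK cells, so that Dnaja1 lay near 1.3 in T, B and NK cells each taken whole, against 1.08 (0.789 to 1.49) in monocytes and 0.943 (0.753 to 1.18) in free RNA. Within T cells the Dnaja1 ratio was 1.13 (0.950 to 1.34) in those with Cd4 UMIs and 1.30 (1.20 to 1.41) in those with Cd8 UMIs. Dnaja2 had ratios of 1.10, 1.03, 0.828 and 0.802 in T, B, NK cells and monocytes. Dnajb1 had ratios of 1.14, 1.01, 1.26 and 0.871, and Dnajb6 of 1.02, 0.972, 0.882 and 0.855 in that order. Among these 3, the interval left out 1 for Dnaja2 (1.01 to 1.21) and Dnajb1 (1.01 to 1.29) in T cells and held it elsewhere.

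Of the Hsp90 pair, Hsp90ab1, the constitutive form, stood at 654 mutant and 615 wildtype CPM in T cells, a ratio of 1.06 (1.02 to 1.11). In B cells it stood at 667 and 551 CPM, a ratio of 1.21 (1.13 to 1.30), and in monocytes at 529 and 780 CPM, a ratio of 0.678 (0.554 to 0.829). It was the only cytosolic member whose interval lay above 1 in some types and below 1 in another, and the difference between types was not tested. Hsp90aa1, the inducible form, had ratios of 1.06 (0.987 to 1.14) in T, 1.23 (1.11 to 1.37) in B and 1.32 (1.09 to 1.58) in NK cells and 0.945 (0.703 to 1.27) in monocytes. With cells thinned to 1000 UMIs its NK ratio was 1.086. Stip1, the adaptor between Hsp70 and Hsp90, had ratios of 1.20 (1.04 to 1.40) in T, 1.31 (1.04 to 1.66) in B and 1.23 (0.855 to 1.75) in NK cells. Chordc1, an Hsp90 partner, had ratios of 1.18 (0.985 to 1.42), 1.19 (0.849 to 1.68) and 0.811 (0.410 to 1.49) in the same order.

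The monocyte values carry a difference in what the class held. Neutrophil markers summed to 139 mutant and 1557 wildtype CPM there, conventional dendritic markers to 366 and 127 CPM and platelet markers to 1205 and 499 CPM. With cells that held 3 or more such UMIs, or over 5% haemoglobin, removed (37 of 106 mutant and 20 of 106 wildtype cells), the cytosolic ratio was 1.03 in place of 0.943, and 6 of the 8 measured members stood above 1 in place of 2. Hsp90ab1 stayed at 0.733. The same removal left the cytosolic ratio at 1.14 in T, 1.26 in B and 1.24 in NK cells.

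In the mitochondrion, Hspd1 and Hspe1 are the chaperonin Hsp60 and its lid Hsp10. Hspd1 had 373 mutant UMIs in 306 B cells and 204 wildtype UMIs in 174 B cells, or 143 and 90.8 CPM, a ratio of 1.57 (1.32 to 1.87), and 1.49 in B cells of at least 1500 UMIs. Hspe1 stood at 261 and 225 CPM in B cells, a ratio of 1.16 (1.03 to 1.30), and Hspa9, the mitochondrial Hsp70, at 96.7 and 99.3 CPM, a ratio of 0.974 (0.810 to 1.17). The 3 genes thus lay at different ratios in the same B cells. In T cells their ratios were 1.11 (1.002 to 1.24), 0.996 (0.935 to 1.06) and 1.08 (0.957 to 1.21), and in NK cells 1.06, 0.944 and 0.828, with all 3 NK intervals holding 1. Monocytes held 52 UMIs of Hspd1 and 85 of Hspe1 over both libraries, with ratios of 0.778 and 0.946, and Hspa9 was not measured there.

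The ER members were mixed in every type. Ratios stood above 1 for 10 of 19 measured members in T, 9 of 19 in B, 9 of 18 in NK cells and 6 of 12 in monocytes, beside the shares of all genes given above, and no ER member was apart in a lymphocyte type. Atf6 was not measured in T cells, Hyou1 in B cells, both of them in NK cells, and Dnajb9, Dnajc3, Atf6, Ddit3, Pdia4, Creld2, Hyou1 and Sel1l in monocytes. Median log2 ratios were 0.04, -0.01, 0.02 and -0.01 in T, B, NK cells and monocytes.

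Of the transcription factors, Xbp1 had 202 mutant and 235 wildtype UMIs in T cells, a ratio of 1.13 (0.929 to 1.37). In B cells it had 120 and 134 UMIs, a ratio of 0.769 (0.596 to 0.991), though with ratios on either side of 1 in B cell subsets. Atf4 had ratios of 0.919 (0.803 to 1.05) in T and 1.03 (0.883 to 1.19) in B cells, and in monocytes 29 and 44 UMIs, a ratio of 0.554 (0.334 to 0.906), which was apart and remained 0.585 without the mixed cells. Ddit3, which encodes CHOP, had 115 and 112 UMIs in T cells, a ratio of 1.35 (1.03 to 1.76), and a ratio of 1.20 (0.891 to 1.63) in B cells. Atf6 had 43 and 46 UMIs in B cells, a ratio of 0.802 (0.517 to 1.24). These counts of UMIs do not read the splicing of Xbp1, by which its active form is made.

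Hspa5, the ER Hsp70 known as BiP, stood at 278 mutant and 254 wildtype CPM in T cells, a ratio of 1.09 (1.02 to 1.18). In NK cells it stood at 354 and 439 CPM, a ratio of 0.806 (0.667 to 0.967), below 1 where T cells were above, and the difference between these types was not tested. B cells had a ratio of 1.06 (0.965 to 1.17) and monocytes of 1.16 (0.931 to 1.45). Hsp90b1, the ER Hsp90, had ratios of 0.996 (0.908 to 1.09) in T, 1.07 (0.955 to 1.21) in B, 1.15 (0.954 to 1.37) in NK cells and 0.933 (0.706 to 1.24) in monocytes. Hyou1, an ER exchange factor, was sparse, with 23 and 37 UMIs in T cells, a ratio of 0.815 (0.462 to 1.41).

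Herpud1, which recruits the ER degradation machinery, was the ER member farthest from 1 in B cells. It had 707 mutant UMIs in 479 of 1276 B cells and 432 wildtype UMIs in 312 of 1124 B cells, or 270 and 192 CPM, a ratio of 1.40 (1.24 to 1.59). Its ratio was 1.06 (0.913 to 1.24) in T cells, 0.976 (0.658 to 1.41) in NK cells and 0.841 (0.525 to 1.35) in monocytes, and 0.953 (0.652 to 1.39) in free RNA. Sel1l, part of the ER degradation ligase, had ratios of 0.870, 0.891 and 1.21 in T, B and NK cells, each with an interval holding 1.

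The ratios of the ER J-domain proteins in T, B and NK cells were 0.990, 0.907 and 0.722 for Dnajb9, 0.969, 1.10 and 1.03 for Dnajb11 and 1.03, 0.879 and 0.828 for Dnajc3, with every interval holding 1. Dnajb9 had the lowest ratio of the 18 ER members measured in NK cells, on 18 mutant and 98 wildtype UMIs. Dnajb11 was apart in monocytes, with 38 mutant and 50 wildtype UMIs, a ratio of 0.639 (0.408 to 0.994), and stood at 0.758 without the mixed cells and 0.883 after thinning. Sdf2l1, a partner of the ER J-domain proteins, was apart in the other direction in monocytes, with 70 and 38 UMIs, a ratio of 1.55 (1.03 to 2.36), and stood at 1.44 without them and 1.21 under stricter markers. In lymphocytes Sdf2l1 had ratios of 0.909, 0.926 and 0.797 in T, B and NK cells. These 3 monocyte calls, Atf4 included, were 3 of 22 members measured there and rest on 108 UMIs or fewer each. That is 1 higher and 2 lower member, beside 5.88% higher and 6.53% lower among all measured genes, so their number was near the background.

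Among the lectin chaperones of glycoproteins, Calr stood at 236 mutant and 269 wildtype CPM in B cells, a ratio of 0.875 (0.781 to 0.981) with subset ratios on either side of 1, and Canx at 151 and 138 CPM, a ratio of 1.09 (0.940 to 1.27). In T cells their ratios were 1.06 (0.967 to 1.16) and 1.13 (1.01 to 1.26). The disulfide isomerase Pdia3 stood at 207 and 224 CPM in T cells, a ratio of 0.922 (0.851 to 0.998), and its relatives Pdia4 and Pdia6 had ratios of 1.12 and 1.03 in T and 1.08 and 0.900 in B cells. The secreted ER stress proteins Manf and Creld2 had ratios of 1.06 and 0.945 in T cells, 0.995 and 1.001 in B cells and 0.946 and 1.31 in NK cells, each with an interval holding 1.

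Sums over cells do not tell a few loaded cells from a shift in many. Every cell of at least 1000 UMIs was therefore thinned to 1000 UMIs, which left out 37 and 26 T cells, 32 and 17 B cells, 2 and 13 NK cells and 1 and 3 monocytes of the mutant and wildtype libraries. A thinned mutant T cell held a mean of 3.80 cytosolic UMIs and a wildtype one 3.29 (medians 4 and 3), and the share of T cells with none was 2.76% and 4.65%. B cells held 3.45 and 2.77, with 4.34% and 6.96% at none, and NK cells 4.18 and 3.41, with 2.78% and 5.53% at none. The top 5% of cells held 11.5% to 14.5% of the cytosolic UMIs in each type and library, so the cytosolic UMIs were not held by a small set of cells. ER UMIs per thinned T cell were 1.69 in both libraries, with 19.1% of cells at none in each. B cells held 2.53 mutant and 2.34 wildtype ER UMIs, with 10.7% and 13.9% at none, and NK cells 2.73 and 2.81, with 12.8% and 8.05% at none. Monocytes held 3.29 and 3.31 ER UMIs and 3.42 and 3.93 cytosolic UMIs.

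**Figure D3:**
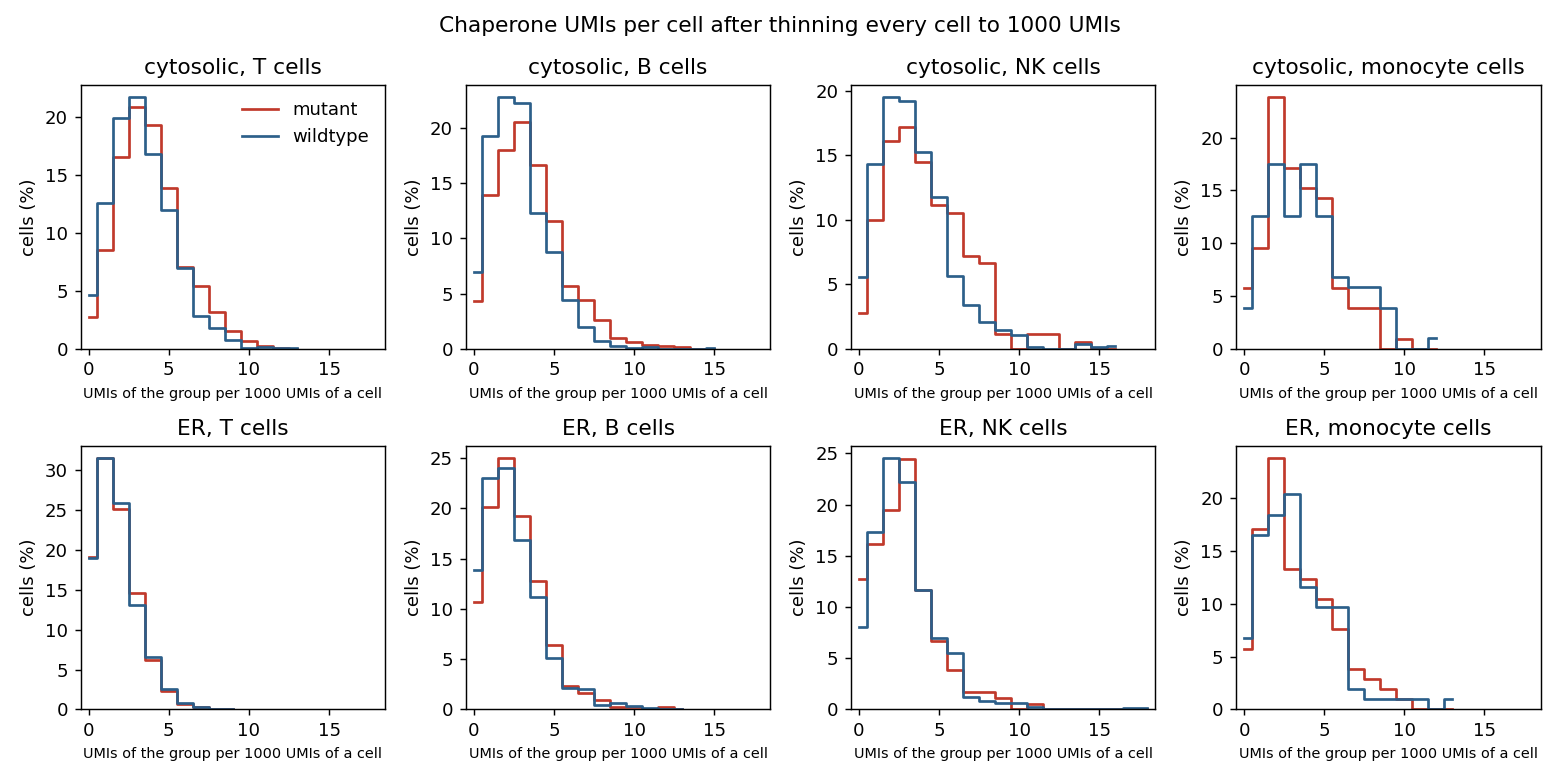
Share of cells (y axis, percent) by the number of cytosolic (top row) or ER (bottom row) UMIs in a cell thinned to 1000 UMIs (x axis), for each type, mutant in red and wildtype in blue. The red cytosolic curve is moved to the right in T, B and NK cells (means 3.80 against 3.29, 3.45 against 2.77 and 4.18 against 3.41), while the ER curves of T cells lie on each other.

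Subsets of the lymphocytes were compared because their make-up could differ between the libraries. T cells with a Cd8a or Cd8b1 UMI and no Cd4 UMI (933 mutant and 1308 wildtype) had a cytosolic ratio of 1.15 (1.12 to 1.18). T cells with a Cd4 UMI and no Cd8 UMI (277 and 337) had a ratio of 1.07 (1.01 to 1.14), with Hspa8 at 0.996 (0.908 to 1.09) against 1.19 (1.14 to 1.23) in the Cd8 subset. In the Cd4 subset the ER ratio was 0.918 (0.845 to 0.997). Whether the Cd4 and Cd8 subsets differ was not tested.

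B cells with Vpreb3 or Cd24a UMIs, markers of transitional B cells (621 and 561), had a cytosolic ratio of 1.253 (1.19 to 1.31), those with Zbtb32 or Bhlhe41 UMIs, markers of innate-like B cells (153 and 90), of 1.18 (1.10 to 1.27), and those without subset markers (488 and 464) of 1.26 (1.19 to 1.34). Hspa8 lay at 1.37, 1.32 and 1.33 in these subsets, so its gap was of similar size in each. Hsph1 lay at 2.56 (1.42 to 4.86), 0.698 (0.300 to 1.65) and 3.39 (1.58 to 8.10), and Herpud1 at 1.62 (1.36 to 1.94), 1.13 (0.860 to 1.498) and 1.29 (1.04 to 1.60). Xbp1 lay at 1.17 (0.793 to 1.72), 0.599 (0.334 to 1.07) and 0.530 (0.322 to 0.855), and Calr at 0.752 (0.634 to 0.892), 0.929 (0.714 to 1.21) and 1.08 (0.886 to 1.32), in the same order of subsets. Both genes had ratios on either side of 1, and the difference between subsets was not tested. Hspe1 was at 0.974 in the cells without subset markers. The 5 plasma cell markers summed to 24.8 mutant and 26.7 wildtype CPM in B cells, with Tnfrsf17 at 0 in both libraries.

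Levels across cell types could be read in each library separately, though types of a library share its depth and free RNA. The ER group was lowest in T cells in both libraries, at 1707 and 1662 CPM, followed by B cells, NK cells and monocytes, the last at 3208 and 3170 CPM. Gene by gene, T cells had the lowest level in both libraries for 15 of the 20 ER members, and monocytes the highest in both for 8. Cytosolic members followed no such order: 3 of 15 had the same order of types in both libraries (Dnaja1, and Hspa1a and Hspa1b, which stayed under 50 UMIs in every type), beside 8 of 20 ER members. How often genes at large had T cells lowest, monocytes highest or the same order was not counted. These counts are therefore not shown to be particular to the members. They rank the levels alone, and for some members the T cell interval overlapped that of another type.

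Some members followed the order of the ER sum and others did not. Xbp1 ran from 177 and 204 CPM in monocytes through 57.7 and 65.7 in NK cells and 45.9 and 59.6 in B cells to 39.9 and 35.4 in T cells (mutant and wildtype), and Pdia6, Canx, Manf and Sel1l ran in this order in both libraries too. NK and B cells lay close for Xbp1, and their intervals overlapped in each library. For Canx, Manf and Sel1l the intervals of monocytes, NK and B cells overlapped in each library. For Pdia6 the NK interval overlapped those of both monocytes and B cells. In the mutant library the T cell interval overlapped those of B and NK cells for Xbp1, Manf and Sel1l, and that of NK cells for Canx. The Sel1l overlaps were there in the wildtype library too. The order of types with overlapping intervals is thus not firm for these genes, and Sel1l had 12 UMIs in the monocytes of each library. Among those with another order, Herpud1 was highest in B cells, at 270 and 192 CPM, and lowest in T cells, at 60.6 and 56.9 CPM. Pdia4 and Ddit3 were also highest in B cells in both libraries, Creld2 and Dnajc3 in NK cells, and Dnajb9 in T cells. For these genes the mutant interval of the highest type overlapped that of the next type. The wildtype intervals overlapped for Ddit3, Creld2 and Dnajb9 but not for Pdia4 and Dnajc3. For Herpud1 the B cell and monocyte intervals overlapped in the wildtype library only. Where intervals overlap, the highest type is not firm. Hspe1 was highest in T cells, at 337 and 339 CPM, and lowest in monocytes, at 133 and 141 CPM.

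**Figure D4:**
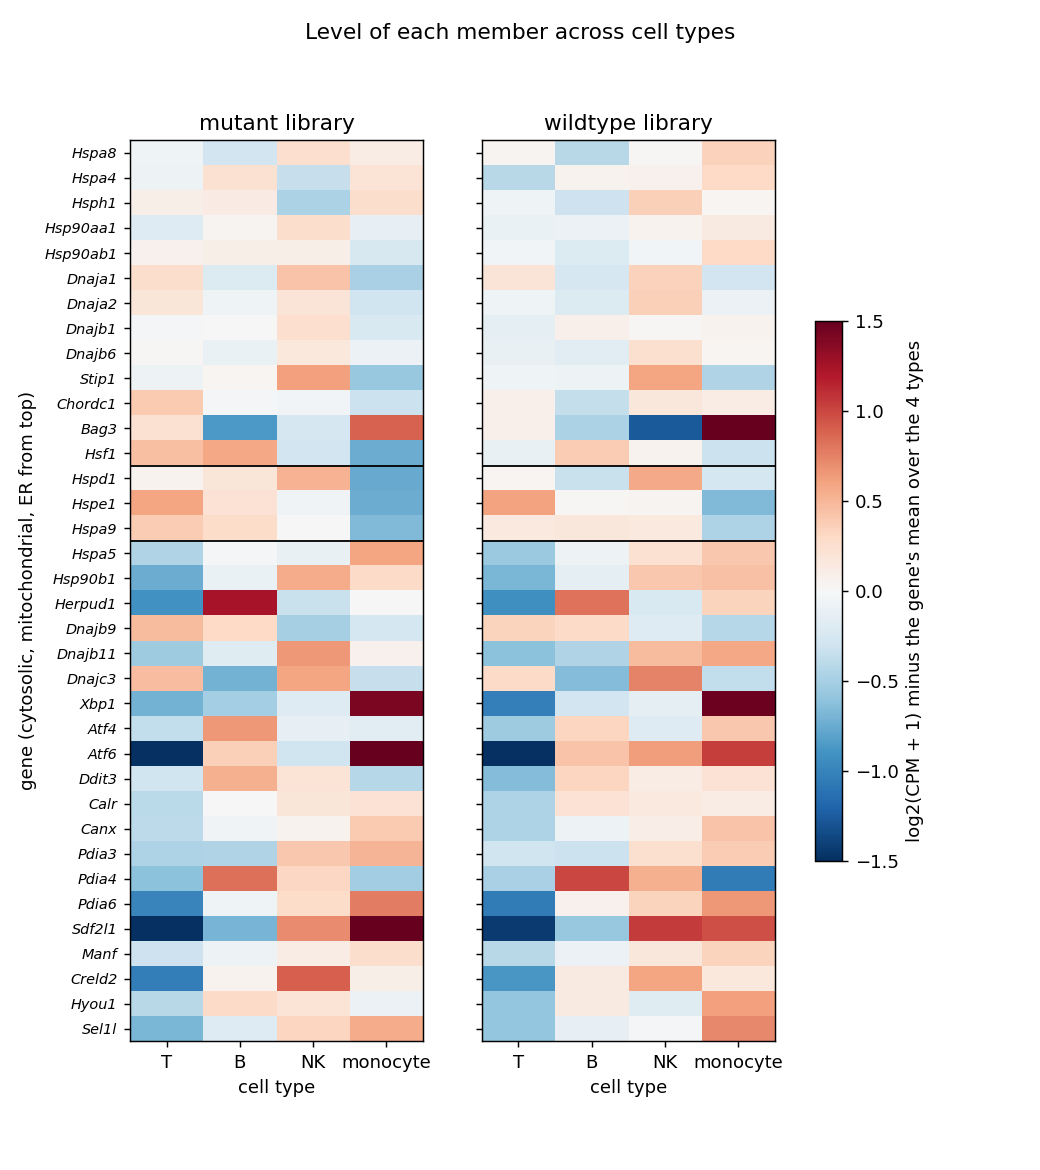
Colour shows log2(CPM + 1) of each member (rows) in each cell type (columns) minus the mean of that member over the 4 types, for the mutant and wildtype library (panels). T cells are blue for most ER members in both panels (lowest in both libraries for 15 of 20), and Herpud1 is reddest in B cells and Xbp1 in monocytes; Hspa1a and Hspa1b are left out for their few UMIs.

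Other genes of the same pathways were read from lists. Of 27 further heat shock factors and cytosolic co-chaperones, 21 were measured in T cells and none was apart, 19 in B cells with Hspa4l higher at 1.67 (0.953 to 3.03), 16 in NK cells with Ptges3 lower at 0.618 (0.414 to 0.895) and Unc45a lower at 0.621 (0.270 to 1.26), and 10 in monocytes with none apart. Over all measured genes 3.19% were higher in B cells and 9.13% lower in NK cells. In monocytes 5.88% were higher and 6.53% lower. Hspa4l is another Hsp110 exchange factor, and Ptges3 (p23) and Unc45a assist Hsp90. Their summed level had ratios of 1.09 (1.07 to 1.11) in T and 1.07 (1.04 to 1.09) in B cells, smaller than those of the cytosolic members. The 13 measured subunits of the cytosolic chaperonin and of prefoldin had none apart in T, B or NK cells, with summed ratios of 1.01, 1.06 and 0.951, and Pfdn1 higher in monocytes at 1.63 (0.883 to 3.12). Of 15 mitochondrial proteases, import factors and related genes, 14 were measured in T and B cells and none was apart, and Dnajc19, an import motor subunit, was lower in monocytes at 0.645 (0.397 to 1.04).

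Of 50 further ER genes, the sensors Ern1 and Eif2ak3 among them, 44 were measured in T cells, with Mzb1 higher at 1.72 (1.16 to 2.56) and Mbtps2 lower at 0.509 (0.330 to 0.769), and 44 in B cells, with Edem1 higher at 1.54 (1.09 to 2.20). Mzb1 is an ER protein of B cells and stood at 223 and 111 CPM in free RNA against 12.4 and 7.23 in T cells; its part in the T cell value was not tested. Mbtps2 is a protease that releases ATF6, and Edem1 acts in ER degradation. In NK cells 1 of 34 was higher and 1 lower, and in monocytes none of 21 was apart. Over all measured genes 2.33% were higher and 2.45% lower in T cells, and 3.19% higher in B cells. In NK cells 4.13% of all measured genes were higher and 9.13% lower. The median log2 ratio of these ER genes was 0.06 in T and 0.02 in B cells, beside 0.01 and -0.003 over all genes. Their summed level had ratios of 1.03 (1.01 to 1.05) in T and 1.02 (0.993 to 1.04) in B cells. For the further co-chaperones, median log2 ratios in T and B cells were 0.13 and 0.09. Those of the chaperonin and prefoldin list were 0.03 and 0.14, and those of the mitochondrial list 0.12 and -0.04.

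Of 20 targets of ATF4 and CHOP, 13 were measured in T cells, with Cebpb and Ddit4 higher, 10 in B cells with Cebpb higher, 7 in NK cells with Ddit4 and Bbc3 higher, and 8 in monocytes with Cebpb higher and Bbc3 lower. Over all measured genes the shares higher were 2.33%, 3.19%, 4.13% and 5.88% in these types, and 6.53% were lower in monocytes. The summed level of the 20 genes had ratios of 1.12 (1.08 to 1.18) in T and 1.12 (1.05 to 1.19) in B cells. It had ratios of 1.13 (0.995 to 1.28) in NK cells and 1.08 (0.962 to 1.22) in monocytes. Median log2 ratios of the measured genes were 0.12, 0.16, 0.13 and -0.07 in T, B, NK cells and monocytes. Cebpb, a transcription factor of the C/EBP family, had 97 mutant and 30 wildtype UMIs in B cells, a ratio of 2.78 (1.83 to 4.33). It had 93 and 54 UMIs in T cells, a ratio of 2.26 (1.60 to 3.22), and 238 and 118 UMIs in monocytes, a ratio of 1.70 (1.35 to 2.13). Cebpb stood at 40.5 and 39.1 CPM in free RNA and at 703 and 415 CPM in monocytes. Its levels were 18.4 and 8.13 CPM in T cells and 37.1 and 13.4 CPM in B cells. The part of free RNA or of other cells in the T and B cell values was not tested. Immediate early genes, which move with handling of cells, had summed ratios of 0.892 in T, 0.867 in B and 0.892 in NK cells and 0.794 in monocytes, below 1 where the cytosolic chaperones of lymphocytes were above. Single genes of that list went both ways: Egr1 had 56 mutant and 7 wildtype UMIs in B cells, a ratio of 6.87 (3.12 to 17.9), and Nr4a1 a ratio of 0.657 (0.556 to 0.777) there, while Dusp1 had a ratio of 0.549 (0.464 to 0.648) in monocytes. Their part in the chaperone values was not tested.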

How the data were processed

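The deposited values were raw UMI counts of 10x Genomics 3′ v2 libraries, which the authors made with Cell Ranger 2.1.1 on mm10, per the submitters' processing notes; the annotation is not given in the sources used here. Cells had at least 800 UMIs, 200 genes and at most 10% mitochondrial UMIs. A cell took a type with at least 2 marker UMIs of it and at least 75% of its marker UMIs of the 4 types; other cells, cross-type doublets among them, were left unassigned, and no doublet caller was used except Scrublet (score above 0.2) as an alternative.

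UMIs were summed per library and type and scaled to CPM of that sum (numpy 2.4.6, scipy 1.17.1, pandas 2.3.3), with exact Poisson 95% intervals and exact conditional (Clopper-Pearson) intervals of ratios. These intervals cover counting error only. The ratio intervals were checked on simulated Poisson counts, the model that they assume. That check does not cover UMIs clustered in cells or differences between libraries. A limit at 0 is that of 3 counts. Medians added 0.5 UMI. All genes went through the same counting rule, without adjustment for their number. How reads shared by near-identical genes were counted is not given in the sources used here. Members described in full were those at least 1.5-fold apart with an interval off 1 and the 4 with most UMIs of each group, the others being given more briefly; of each further list except the immediate early genes, which were meant only as a summed level, the up to 3 genes at least 1.5-fold apart with the interval bound farthest from 1 were given with values, and some others named in counts; Egr1, Nr4a1 and Dusp1 were added after their values were seen. The members, lists and rules were chosen with earlier results of these data known. Alternatives were thinning to 1000 UMIs, stricter types (4 UMIs, 90%), scaling without ribosomal, mitochondrial and haemoglobin genes, subtraction of free RNA, Scrublet, per-cell means, cells of at least 1500 UMIs, subsets, other minimums (20 and 200 UMIs) and 1.25-fold; removal of cells with other cells' UMIs, with and without subtraction, was chosen after seeing the data. Gene positions were matched to GENCODE for 38 of 38 members and not printed except for promoter stretches, which are from RefSeq GRCm38.p6.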

Additional observations from a re-analysis of the deposited data

Results flagged for a closer look

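Hsp90ab1 stood out because its interval lay above 1 in T cells (ratio 1.06) and B cells (1.21) and below 1 in monocytes (0.678). The difference between types was not tested. Hspa5 stood out in the same way, with a ratio of 1.09 in T cells and 0.806 in NK cells, and this difference was not tested either. Within T cells the Hspa5 ratio was 1.07 in those with Cd8 UMIs and 0.925 in those with Cd4 UMIs.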

How the results depend on the processing

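The cytosolic ratio stayed above 1 under all 11 alternatives in T (1.07 to 1.17), all 10 in B (1.23 to 1.86) and all 9 in NK cells (1.19 to 1.29), and under 4 of 9 in monocytes. Of 578 member ratios under alternatives (16 members), 543 lay within the counting interval of the reported value.

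Subtraction of free RNA scaled by haemoglobin moved the cytosolic ratio to 1.17 in T and 1.86 in B cells, the mitochondrial ratio to 3.28 in B cells, the ER ratio to 1.06 in T and 1.06 in B cells, and the members apart to 14 in B (2 reported) and 2 in NK cells (1 reported). It took away 35.8% of mutant and 63.6% of wildtype B cell UMIs, and 16 mutant and 1 wildtype B cells held over 5% haemoglobin. With those and other cells holding UMIs of other types removed (25 mutant and 12 wildtype B cells in all), it took 5.38% and 8.02%, and gave 1.28 (cytosolic) and 1.06 (ER) in B cells, 1.03 (cytosolic) and 1 member apart in monocytes and 2 apart in NK cells; removal alone gave 1.03 and 1 in monocytes.

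In T cells with Cd4 UMIs the cytosolic, mitochondrial and ER ratios were 1.07, 0.945 and 0.918. Thinning gave an ER ratio of 1.08 in B and a mitochondrial ratio of 1.14 in NK cells, and 4, 6 and 6 members apart in T (2 reported), NK cells and monocytes (3 reported). Stricter types gave 1.04 (cytosolic) in monocytes, 1 member apart in T and 3 in NK cells. Cells of at least 1500 UMIs gave 1 in B and 0 in NK cells, B cells without subset markers 5, and per-cell means 3 in NK cells. A minimum of 200 UMIs gave 1, 1, 0 and 0 in T, B, NK cells and monocytes, one of 20 UMIs 2 in NK cells, and the smaller fold rule 5, 7, 8 and 5. The cause of these shifts was not tested, except that thinning, stricter types and higher minimums leave fewer UMIs or genes. The shares of all genes apart under the alternatives, subtraction of free RNA included, were not counted. The counts of members apart under them are therefore not shown to be particular to the members.

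No paired analysis was possible because each genotype had 1 library and its number only names it. Depth limits NK cells and monocytes, where 398586 and 338484 mutant UMIs left 32 and 22 of 38 members measured.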
